A study of Mus musculus with 4 samples.

Results

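The transcripts described here are those of the urea cycle enzymes, 6 genes (Cps1, Otc, Ass1, Asl, Nags and Glud1) chosen by symbol from the 24138 rows of the authors' deposited table, in which each of them has 1 row. Their levels come from RNA sequencing of whole liver tissue of 4 mice, all C57BL/6J males of 18 weeks. Every animal had eaten the FAT-MASH diet, which models metabolic dysfunction-associated steatohepatitis (MASH), and had been treated with RvD1 (resolvin D1), a lipid mediator formed from docosahexaenoic acid. The 4 livers are a single group, named livers 1 to 4 after their labels, and no diet-only, vehicle-treated or healthy livers were analysed here, so the values show levels under this combination and not what the treatment or the diet changed. The labels do not say whether the animals shared a cage, litter or day, nor give the dose or length of treatment.

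The urea cycle turns ammonia, which is toxic to the brain, into urea for excretion, and the complete cycle runs almost only in hepatocytes, mostly those around the portal vein. Glutamate dehydrogenase (Glud1) and other enzymes release ammonia in the mitochondria, where carbamoyl phosphate synthetase (Cps1), switched on by the N-acetylglutamate that Nags makes, joins it to bicarbonate, and ornithine transcarbamylase (Otc) passes the product to ornithine to form citrulline. In the cytosol argininosuccinate synthetase (Ass1) adds aspartate, argininosuccinate lyase (Asl) splits the product into arginine and fumarate, and the breakdown of arginine then yields urea and returns ornithine.

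Promoter sequences were matched by symbol for 4 of the 6 genes (Ass1, Nags, Otc and Glud1) in RefSeq's GRCm38.p6 annotation, as 300 bases that run from 250 before to 50 after the annotated start. Those of 3 genes are printed 5′ to 3′ on the gene's own strand, all of them the plus strand, because they belong to the enzyme with the highest level (Ass1), the one with the lowest (Nags) and the X-linked one (Otc). They cover chr2:31470020-31470319, chr11:102145263-102145562 and chrX:10252055-10252354. Capitals mark matches to the motifs searched.
Ass1: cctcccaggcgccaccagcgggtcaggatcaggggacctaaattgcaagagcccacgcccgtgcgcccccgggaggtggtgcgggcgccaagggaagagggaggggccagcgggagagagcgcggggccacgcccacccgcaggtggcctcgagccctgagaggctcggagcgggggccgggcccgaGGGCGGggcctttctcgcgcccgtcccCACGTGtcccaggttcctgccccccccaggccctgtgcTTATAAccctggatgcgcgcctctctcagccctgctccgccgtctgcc
Nags: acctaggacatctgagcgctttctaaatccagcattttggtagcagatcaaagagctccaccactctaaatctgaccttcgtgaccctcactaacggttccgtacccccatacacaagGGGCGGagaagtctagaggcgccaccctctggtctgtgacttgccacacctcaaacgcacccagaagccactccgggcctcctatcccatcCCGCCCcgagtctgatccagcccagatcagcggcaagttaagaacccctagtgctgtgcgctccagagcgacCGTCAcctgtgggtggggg
Otc: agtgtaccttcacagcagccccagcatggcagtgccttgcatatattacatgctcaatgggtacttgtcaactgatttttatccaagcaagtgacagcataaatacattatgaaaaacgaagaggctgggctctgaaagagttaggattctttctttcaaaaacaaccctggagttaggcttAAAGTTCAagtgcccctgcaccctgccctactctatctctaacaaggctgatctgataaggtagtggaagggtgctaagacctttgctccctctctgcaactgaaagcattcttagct

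The 4 promoters differed in base composition. G and C made up 74% of the Ass1 window, 81% of that of Glud1, 57.7% of that of Nags and 44.3% of that of Otc, against a median of 52.7% over 32851 RefSeq promoters of the same length. The Otc window held 1 CG dinucleotide, the Nags window 14, the Ass1 window 27 and the Glud1 window 51. In all, 8 motifs were searched on both strands. GGGCGG (GC box) was found in Ass1, Nags and Glud1 and in 35.7% of all promoters. CACGTG (E-box) was found in Ass1 and in 7.15% of promoters, and TATAA in Ass1, on both strands as overlapping matches, and in 24.9%. The TATAA matches begin at positions 3 and 4 after the annotated start of Ass1, and none lay before it. TGACG, part of the cyclic AMP response element, was found in Nags, at position 32 after the annotated start, and in 20.8% of promoters. AAAGTNCA, letters of the hexamer type that HNF4 and related nuclear receptors recognise, was found in Otc and in 4.12% of promoters. TTGCNNCAA, of the C/EBP type, AGAACA, of the glucocorticoid receptor type, and CCAAT were not found in any of the 4 windows, and occurred in 2.08%, 19.0% and 37.4% of all promoters. These are matches of letters in the reference and were not tested for binding.

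Depth and tissue were examined first. The values are FPKM, fragments scaled by transcript length and by the number of mapped fragments, so levels can be compared between genes. The summed FPKM ranged from 516816 to 570681 per liver, and the value of single fragments on low genes put the depth at about 18.8 to 20.1 M fragments per liver (M, mega). Of 10 hepatocyte markers 9 had a mean of at least 1 FPKM. Alb, which encodes albumin and is among the most abundant transcripts of liver, was listed at 0 in all 4 livers, so a value of 0 in this table need not mean that a transcript was absent. All 6 urea cycle genes were above 0 in every liver. Liver 2 stood apart in its acute phase transcripts, secreted proteins of the inflammatory response, with a summed level of 15650 FPKM over 10 genes against 5047 to 7306 FPKM in the others. Summed markers of other cells ranged over the livers from 183 to 264 FPKM for 8 macrophage genes, from 8.26 to 18.4 FPKM for 5 neutrophil genes, from 3.20 to 4.19 FPKM for 6 T and B cell genes, from 41.9 to 54.5 FPKM for 6 endothelial genes, from 194 to 298 FPKM for 7 stellate genes, from 192 to 233 FPKM for 5 cholangiocyte genes and from 427 to 1076 FPKM for 3 erythroid rows. In bulk tissue, fewer cells of a type and less RNA per cell cannot be told apart.

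All 6 enzymes were expressed, over a 61.3-fold range of mean FPKM, and 5 of them were among the 500 genes with the highest mean. Together they made up 0.705 ± 0.0934% of the summed FPKM (SD, n = 4), with 0.672%, 0.622%, 0.839% and 0.687% in livers 1 to 4. The summed FPKM lacks Alb, listed at 0, here and wherever livers are scaled to a common sum. These are therefore shares of the listed values only. Liver 3 had the largest share and liver 2 the smallest. Ass1 alone contributed 59.1 ± 1.22% of the level of the 6 genes (SD, n = 4). In order of mean FPKM the genes were Ass1, Cps1, Asl, Glud1, Otc and Nags.

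**Figure D1:**
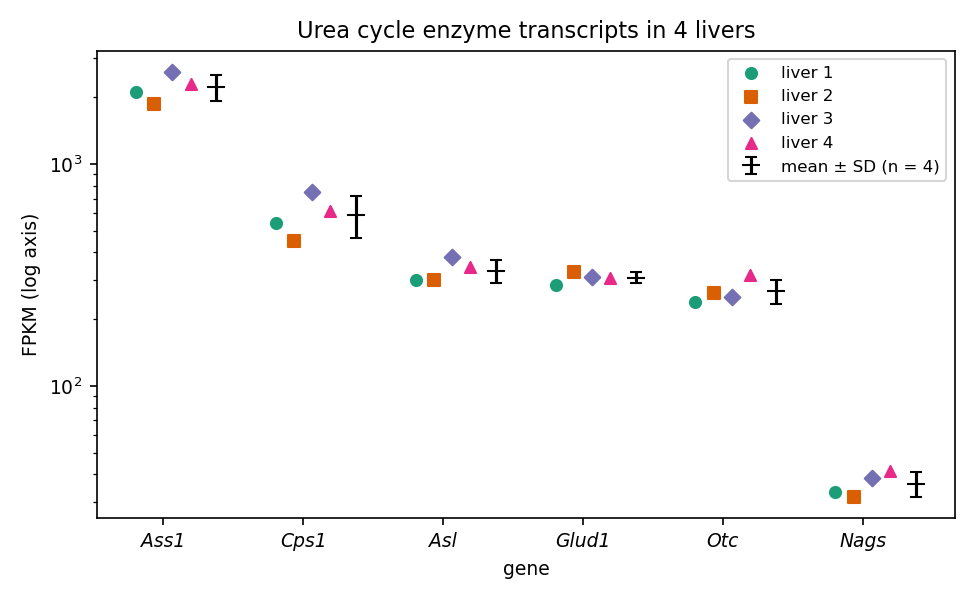
FPKM (log axis) of the 6 urea cycle enzymes in livers 1 to 4, ordered by mean, with 1 symbol per liver and the mean ± SD in black (n = 4). Ass1 lies above 1875 FPKM and Nags below 41.6 FPKM in every liver, while Asl, Glud1 and Otc overlap.

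Nags and Glud1 act where nitrogen enters the cycle. Nags (XLOC_003187, chromosome 11, 102145513 to 102149528, plus strand), which makes the activator of Cps1, had 33.3, 31.8, 38.6 and 41.6 FPKM in livers 1 to 4. Livers 3 and 4 were above livers 1 and 2, and the mean was 36.3 ± 4.55 FPKM (SD, n = 4). Nags was the lowest of the 6 genes in all 4 livers, with a mean that was 7.37-fold below that of Otc, the next gene in the order. At the estimated depth its values rest on about 1123 to 1431 fragments, which gives a counting error of up to 2.98%, and its coefficient of variation between livers was 12.5%. GENCODE vM21 places an antisense gene, Gm11586, on the opposite strand within Nags. Whether the libraries kept strand is not given in the sources used here, so reads of the antisense gene cannot be told apart from those of Nags.

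Glud1 (XLOC_006143, chromosome 14, 34310727 to 34345658, plus strand), which interconverts glutamate and ammonia with 2-oxoglutarate, was listed at 286, 328, 311 and 308 FPKM. Its values lay close together, with liver 2 highest and liver 1 lowest, at a mean of 308 ± 16.9 FPKM (SD, n = 4). The deposited span also covers a processed pseudogene, Gm3219, and stretches of 656 and 287 bases of the Glud1 transcript are 97.6% identical to Glud-ps and Gm43444, neither of which has a row in the table.

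In the mitochondrial steps, Cps1 (XLOC_000176, chromosome 1, 67123027 to 67231267, plus strand), the rate-controlling enzyme that commits ammonia to the cycle, had 541, 450, 748 and 617 FPKM in livers 1 to 4. Liver 3 was highest and liver 2 lowest, a 1.66-fold range, and the mean was 589 ± 126 FPKM (SD, n = 4). The range was 1.38-fold without liver 2 and 1.37-fold without liver 3. Otc (XLOC_023037, chromosome X, 10252359 to 10321024, plus strand), which forms citrulline, was listed at 238, 264, 252 and 317 FPKM, with a mean of 268 ± 34.4 FPKM (SD, n = 4). Its highest value was in liver 4 and the other livers lay between 238 and 264 FPKM. Cps1 exceeded Otc in every liver, by a ratio of Otc to Cps1 of 0.440, 0.586, 0.336 and 0.513.

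Among the cytosolic enzymes, Ass1 (XLOC_011236, chromosome 2, 31470270 to 31520670, plus strand), which brings in the second nitrogen from aspartate, had 2125, 1875, 2603 and 2293 FPKM in livers 1 to 4. Its mean of 2224 ± 305 FPKM (SD, n = 4) was rank 24 of all rows. Liver 3 was highest and liver 2 lowest. A processed pseudogene, Gm5424, is 99.5% identical to the Ass1 transcript over 1240 bases and has no row in the table, so how reads shared by both were counted is uncertain. Asl (XLOC_016855, chromosome 5, 130011503 to 130024331, minus strand), which releases arginine and fumarate, was listed at 302, 300, 383 and 342 FPKM, with a mean of 332 ± 39.5 FPKM (SD, n = 4). Livers 3 and 4 were above livers 1 and 2, and the latter were nearly equal.

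The order of the levels was the same in all 4 livers except in its middle. Ass1 was above Cps1, Cps1 above Asl, and Otc above Nags in 4 of 4 livers with ranges that did not overlap. The means of Ass1 and Cps1 differed 3.78-fold and those of Cps1 and Asl 1.78-fold. Asl was above Glud1 in 3 of 4 livers, with liver 2 the exception, and their means differed 1.08-fold. Glud1 was above Otc in 3 of 4 livers, with liver 4 the exception, and their means differed 1.15-fold. The ranges of both pairs overlapped, so these neighbours did not differ beyond their spread.

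The enzymes differed from each other in how far they varied between animals. Spread was measured on the log2(FPKM + 1) scale as the SD between livers, and its median over the 6 genes was 0.18, against 0.16 over the 10541 genes whose mean reached 1 FPKM and 0.16 over the 1407 whose mean reached 50 FPKM (abundant genes). Cps1 had the widest spread of the 6, with an SD of 0.31, and 90.9% of the 10541 genes had a smaller one. Ass1 (0.20), Otc (0.18), Nags (0.18) and Asl (0.17) lay near the median of all genes. For some of them this rests on single livers. The SD was 0.073 for Otc without liver 4 and 0.11 for Asl without liver 3, but 0.24 for Ass1 without liver 4. Glud1 had the narrowest spread of the 6, with an SD of 0.080, and 10.8% of all genes and 6.97% of those with a mean of at least 50 FPKM had a smaller one. Its SD was 0.047 without liver 1 and 0.098 without liver 4, where Otc was the narrowest. After scaling each liver to the same sum of FPKM, which lowers liver 4, the share below Glud1 was 23.7% of all genes and 29.3% of the abundant ones, and that of all genes below Otc 30.9%, against 57.3% for Otc as deposited. Cps1 was the only one of the 6 with a ratio of at least 1.5 between its highest and lowest liver, and 28.3% of all 10541 genes had such a ratio (14.1% of the 1407 abundant ones).

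**Figure D2:**
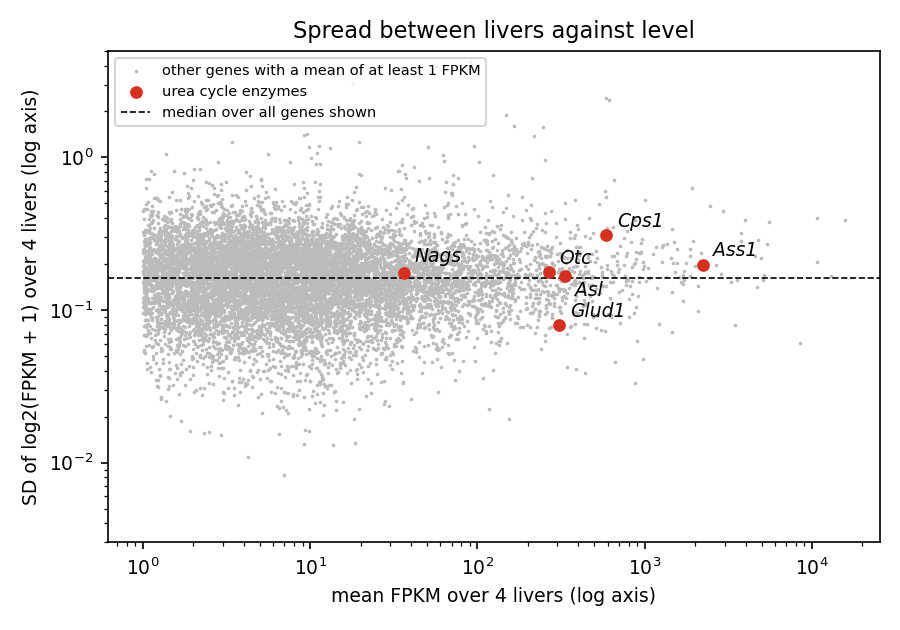
SD between the 4 livers on the log2(FPKM + 1) scale against mean FPKM (both axes log) for the 10541 genes whose mean reached 1 FPKM in grey and the 6 urea cycle enzymes in red; the dashed line is the median SD, 0.16. Cps1 lies above most genes and Glud1 below the line, while Nags, Otc, Asl and Ass1 lie near the line.

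Single livers that lie far from the other 3 were sought with Dixon's ratio. This ratio, the distance of the most extreme liver to its nearest neighbour as a share of the range, was computed on the log2 scale. It passed its 95% critical value for 0 of 6, against 5.46% of all genes and 4.98% of the abundant ones. A count of 0 in 6 genes is near that background and is no result about the enzymes.

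Cps1, Ass1 and Asl shared the same order of livers, highest in liver 3, followed by liver 4, liver 1 and liver 2. This order was found for 6.75% of all 10541 genes and for 7.75% of the 1407 abundant ones. On the log2 scale the deviations from the gene mean in liver 3 were 0.37 for Cps1, 0.24 for Ass1 and 0.21 for Asl, and those in liver 2 were -0.36, -0.24 and -0.14. Nags shared the low livers, with -0.11 in liver 1 and -0.18 in liver 2, but was highest in liver 4. Liver 3 remained the highest for Cps1, Ass1 and Asl under 2 other scalings of the livers, whereas the exact order changed for Ass1 under scaling to a common sum and for Asl under median-ratio scaling, where liver 1 was lowest. Otc and Glud1 did not have this order. The difference between profiles was taken as the root mean square over the 4 livers. It was 0.062 for Ass1 and Asl, 0.096 for Cps1 and Ass1 and 0.14 for Cps1 and Asl. Nags was at 0.097 from Asl, 0.11 from Ass1 and 0.13 from Otc, each closer than Cps1 was to Asl. The largest difference of all pairs was 0.30, for Cps1 and Otc.

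**Figure D3:**
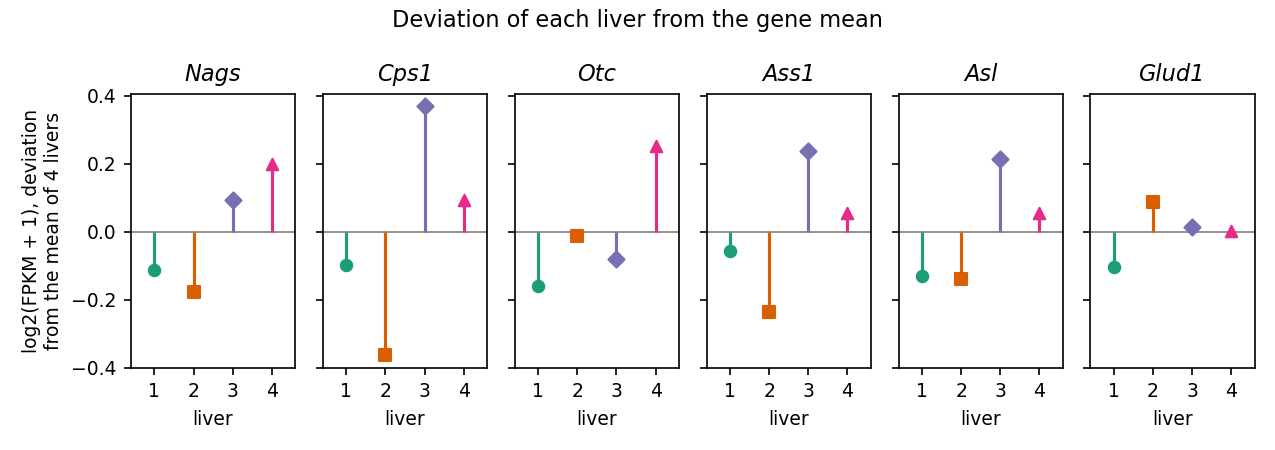
Deviation of log2(FPKM + 1) in each liver from the mean of the 4 livers, 1 panel per enzyme, with symbols and vertical lines for livers 1 to 4. Cps1 spans from -0.36 in liver 2 to 0.37 in liver 3, Ass1 and Asl have the same order of livers, and Glud1 has the narrowest range of the 6.

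Of the 6 enzymes 4 (Cps1, Ass1, Asl and Nags) were lowest in liver 2, against 29.9% of all genes and 33.8% of the abundant ones, and 3 (Cps1, Ass1 and Asl) were highest in liver 3, against 26.8% of all genes. No test was made of either count over 6 genes. Liver 2 is the liver with the high acute phase level, and all 10 genes of that list were above their mean there. Of the summed markers of other cells, liver 2 also had the highest level for neutrophil (18.4 FPKM, against 8.26 to 10.5 FPKM in the others), stellate (298 FPKM, against 194 to 237 FPKM), endothelial (54.5 FPKM, against 41.9 to 53.3 FPKM) and T and B cell genes (4.19 FPKM, against 3.20 to 3.32 FPKM). The summed hepatocyte markers were lowest in liver 2 (24701 FPKM), followed by liver 3 (25690 FPKM), and 3 of 9 expressed hepatocyte markers were lowest in liver 2. Liver 3 had the lowest sums for macrophage (183 FPKM), stellate (194 FPKM), cholangiocyte (192 FPKM), erythroid (427 FPKM) and T and B cell genes (3.20 FPKM, against 3.22 FPKM in liver 1). Most of the cholangiocyte sum was Spp1 (171 FPKM in liver 3). Spp1 and Krt19 were lowest in liver 3, Epcam was lowest in liver 1, and Sox9 and Krt7 were highest in liver 3. The erythroid sum rests on the Hba-a1 rows, and Alas2 was highest in liver 3 (64.0 FPKM). The part of the acute phase level and of these other cells in the Cps1, Ass1, Asl and Nags values of livers 2 and 3 was not tested. The median deviation of the 6 enzymes in liver 2 was -0.16, against -0.019 over all expressed genes. Livers 1, 3 and 4 gave -0.11, 0.15 and 0.073 for the 6 enzymes, and over all expressed genes liver 4 had a median deviation of 0.042. After scaling to a common sum, Glud1 was lowest in liver 4 and Nags was highest in liver 3.

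Ratios within a liver do not depend on the scaling between livers. Ass1 exceeded Cps1 3.93-, 4.17-, 3.48- and 3.72-fold in livers 1 to 4, a mean of 3.82 ± 0.295 (SD, n = 4). The ratio of Asl to Ass1, consecutive steps in the cytosol, was 0.1419, 0.1598, 0.1472 and 0.1494, with a coefficient of variation of 5.02%, the smallest among the 11 ratios computed. The ratio of Glud1 to Cps1 was 0.529, 0.728, 0.416 and 0.500, with a coefficient of variation of 24.4%. Liver 2 had the highest and liver 3 the lowest ratio to Cps1 for each of the other 5 enzymes.

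**Figure D4:**
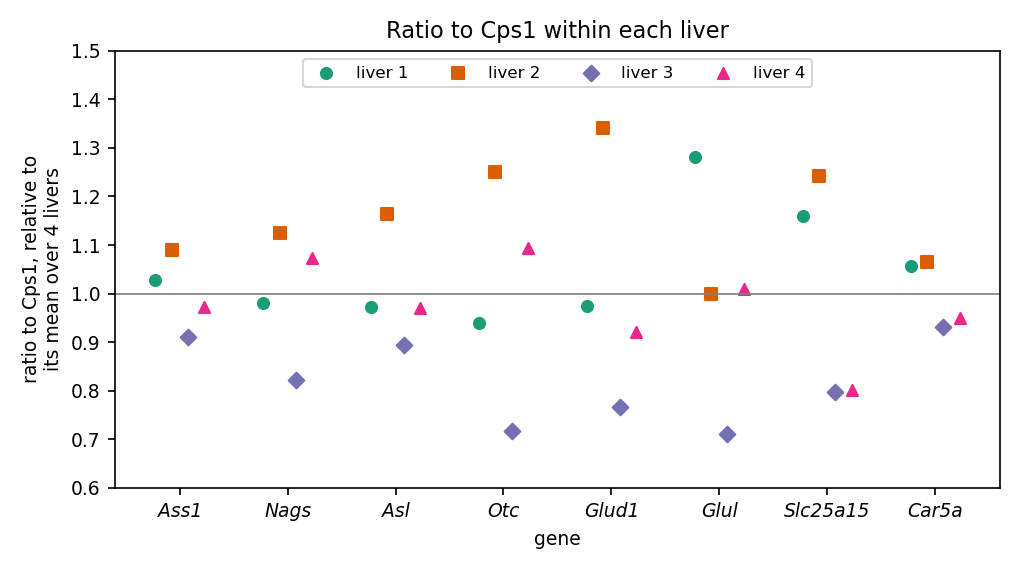
Ratio of each gene's FPKM to that of Cps1 within livers 1 to 4, divided by its mean over the 4 livers, for the other 5 urea cycle enzymes and for Glul, Slc25a15 and Car5a. For the 5 enzymes liver 2 is highest and liver 3 lowest, the reverse of Cps1 itself, and the symbols lie closest together for Car5a and Ass1.

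The carriers and the bicarbonate supply of the cycle were examined next, from a list of 12 genes of which 7 had a mean of at least 1 FPKM. Car5a, the mitochondrial carbonic anhydrase that supplies bicarbonate to Cps1, had 54.4, 45.5, 66.2 and 55.7 FPKM in livers 1 to 4. It had the same order of livers as Cps1, and the ratio of Car5a to Cps1 was 0.0951 ± 0.00666 (SD, n = 4). Slc25a15, the carrier that exchanges ornithine for citrulline, was listed at 79.3, 70.6, 75.5 and 62.4 FPKM, highest in liver 1 and lowest in liver 4. Slc25a13 (citrin), which exports mitochondrial aspartate for Ass1, was listed at 94.3, 106, 86.2 and 116 FPKM, with liver 4 highest and liver 3 lowest. Slc7a2, a carrier of cationic amino acids, was 69.8 FPKM in liver 3, and the others lay from 83.4 to 86.3 FPKM, and Aqp9, a channel for glycerol and urea, had a mean of 182 ± 31.5 FPKM (SD, n = 4). Slc25a18, a glutamate carrier, was listed at 0 in all 4 livers.

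In the arginine and ornithine branches, 6 of 11 genes had a mean of at least 1 FPKM. Oat, which degrades ornithine and is a pericentral gene, was listed at 95.1, 37.97, 80.6 and 67.7 FPKM, lowest in liver 2 over a 2.51-fold range. Agmat, which encodes agmatinase, was listed at 111, 102, 147 and 128 FPKM, in the same order of livers as Cps1. Gamt, the last enzyme of creatine synthesis, had a mean of 322 ± 18.4 FPKM (SD, n = 4), but its row carries a span of 672333 bases that covers many genes.

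Nitrogen supply was examined in 17 genes, all with a mean of at least 1 FPKM. Gls2, the liver glutaminase that feeds ammonia to Cps1 in periportal hepatocytes, had 143, 140, 177 and 160 FPKM in livers 1 to 4, the same order of livers as Cps1. Glul, the pericentral glutamine synthetase that takes up the ammonia the cycle leaves, was listed at 275, 179, 211 and 248 FPKM, with liver 1 highest and liver 2 lowest. The ratio of Gls2 to Glul was 0.518, 0.783, 0.838 and 0.646. Slc38a3, a glutamine carrier, had the highest mean of the list at 1040 ± 135 FPKM, followed by the amino acid carrier Slc38a4 at 388 ± 50.5 FPKM and by Got2, the mitochondrial aspartate aminotransferase, at 319 ± 41.5 FPKM (each SD, n = 4). Slc38a3 also had the order of livers seen in Cps1. The glutamate carrier Slc1a2 and the ammonium channel Rhbg, both pericentral, were lowest in liver 2. Their levels there were 1.81 and 4.08 FPKM, and they varied over a 4.33-fold and a 3.03-fold range. Asns, the asparagine synthetase induced by amino acid shortage, was listed at 1.37, 3.35, 1.86 and 5.11 FPKM, a 3.73-fold range.

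Regulators known from the literature on these genes were examined in a list of 15, all with a mean of at least 1 FPKM. Cebpa, a transcription factor that maintains hepatic urea cycle gene expression, had 142, 181, 293 and 160 FPKM in livers 1 to 4, highest in liver 3, and Hnf4a, another hepatocyte factor, had 93.9, 104, 156 and 118 FPKM, also highest in liver 3. Cebpb, which is induced in the acute phase response, was listed at 132, 273, 213 and 123 FPKM, with livers 2 and 3 above livers 1 and 4. Gcgr, the receptor for glucagon, a hormone that induces the cycle, was listed at 117, 104, 126 and 120 FPKM, and Sirt5, which removes acyl groups from the Cps1 protein, at 14.9, 12.1, 14.0 and 15.4 FPKM. Gcgr was highest in liver 3 and lowest in liver 2, as Cps1 was, and Sirt5 was lowest in liver 2. Of the 15 regulators 4 were lowest in liver 2, near the 29.9% of all genes, and 4 were lowest in liver 3.

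Over these 4 lists, 15 of 45 genes whose mean reached 1 FPKM had a ratio of at least 1.5 between the highest and the lowest liver (33.3%, against 28.3% of all genes), and 6 had a ratio of at least 2 (6.38% of all genes). Liver 2 was lowest for 20 of the 45 (44.4%, against 29.9%). The order of livers of Cps1 was found in 5 of 45 (11.1%, against 6.75%), and these were Car5a, Agmat, Gls2, Slc38a3 and Gcgr. The median SD of the 45 genes was 0.19, against 0.18 for the 6 enzymes.

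**Figure D5:**
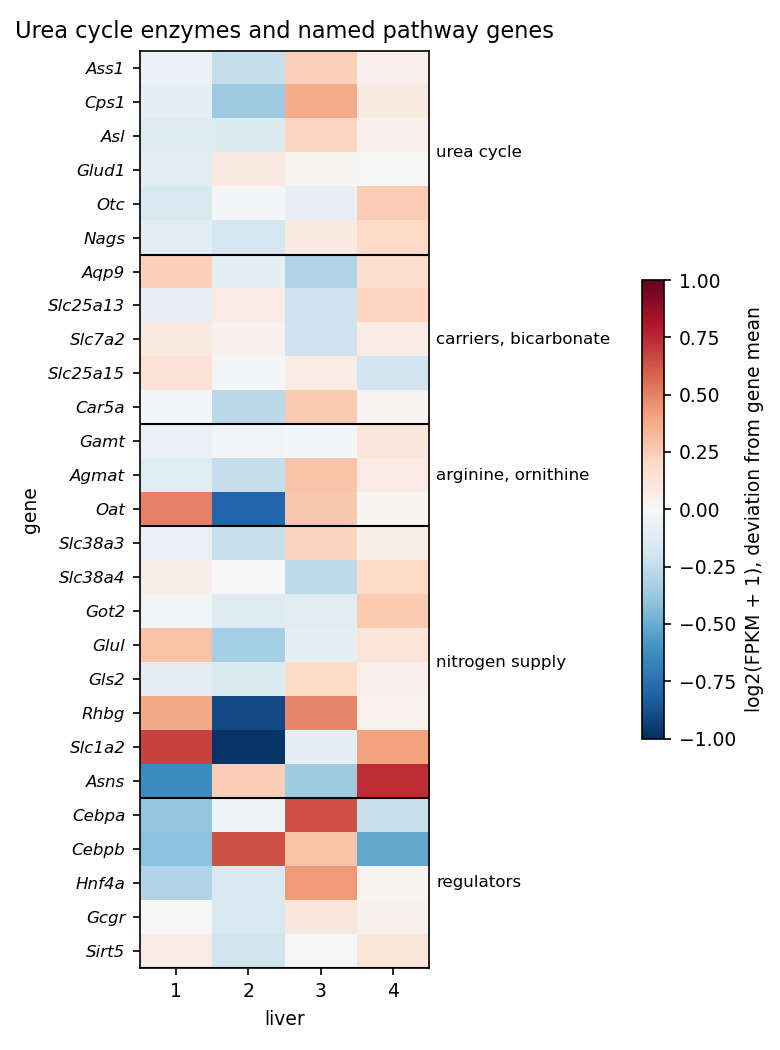
Deviation of log2(FPKM + 1) from the gene mean in livers 1 to 4 (colour, blue below and red above the mean) for 27 genes, the 6 enzymes at the top and the named genes of the 4 pathway lists below. Cps1, Ass1, Asl, Car5a, Agmat, Gls2 and Slc38a3 share red in liver 3 and blue in liver 2. So do Nags, Oat, Rhbg, Gcgr and Hnf4a, and, only faintly blue in liver 2, Slc25a15 and Cebpa. The strongest colours are those of Slc1a2, Rhbg, Oat and Asns.

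Zonation markers were set beside the enzymes, since the cycle is periportal. Of 10 periportal markers 2 were lowest in liver 2, near the 29.9% of all genes, and their median deviation there was 0.0065. Of 12 pericentral markers 9 were lowest in liver 2, against the same 29.9%, with a median deviation of -0.32. The periportal genes with the highest means were Cyp2f2 (1359 ± 255 FPKM), Pck1 (919 ± 155 FPKM) and Hsd17b13 (592 ± 124 FPKM, each SD, n = 4). Cyp2f2 had 1130 and 1147 FPKM in livers 1 and 2 and 1572 and 1588 FPKM in livers 3 and 4, the same split of livers as Nags and Asl, while Pck1 was highest in liver 1 and lowest in liver 3. Their part in the values of the enzymes was not tested.

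The genes with profiles most like those of the enzymes were sought among non-members with a mean of at least 1 FPKM, by the root mean square difference of the log2 deviations over 4 livers. Nearest to Cps1 were Caskin2, Tuba4a, Ccdc125, Nfkbib and Sardh, at differences of 0.021 to 0.029. Sardh, the mitochondrial sarcosine dehydrogenase, had 200, 162, 282 and 220 FPKM in livers 1 to 4. Nearest to the median profile of the 6 enzymes were Cstf2, Pmm2, AI987944, Pskh1 and Parp10, at differences of 0.011 to 0.015. With 4 livers many genes have like profiles, so these names describe likeness in these samples only.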

How the data were processed

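Total RNA of 4 livers was sequenced after poly(A) enrichment, per the labels' protocols. The submitters' processing notes name FastQC 0.10.1, Trim Galore 0.6.3, cutadapt, STAR 2.7.6a, Cufflinks 2.2.1 and the build mm10; roles, parameters and annotation are not given in the sources used here. The deposited values were taken as FPKM because Cufflinks is among the named tools, the identifiers have its form and the values are not whole numbers. The header names no unit. Cufflinks can list a gene at 0 when its estimate fails. Each column name equals the description of 1 sample, and 0 columns had none. With 1 added, 3 of 6 starts equalled RefSeq's, so 1 was added to each start.

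Values were analysed as log2(FPKM + 1), with a minimum mean of 1 FPKM, in Python 3.11.15. With 1 group no test was made, and replicates are separate livers by label. FPKM holds no counts. Depth was estimated from single-transcript genes of GENCODE vM21 (GRCm38, the assembly mm10 is made from) longer than 800 bases as the median, between 25 and 75, of FPKM times length less 200 bases. Subtracting 100 or 300 bases gave 18.2 to 21.1 M fragments (M, mega). Counting errors cover counting only. Copies were sought with blastn among GENCODE transcripts (at least 90% identity over 200 bases).

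Members and 16 lists (142 symbols, 137 in the table) were chosen with earlier results of these data known; 3 further listed genes are not reported here. Named genes are the 6 enzymes, the 5 most similar profiles and, from the pathway and zonation lists, mainly the 3 highest means, ratios of at least 2, genes at 0 in all livers and genes paired with an enzyme; other marker lists are given as sums. Alternatives were other scalings, pseudocounts, filters and leaving out each liver. The procedures were tested on simulated data.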

Additional observations from a re-analysis of the deposited data

Results flagged for a closer look

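Of 68 named rows and 11 ratios checked for a liver far from the other 3 by Dixon's ratio at the 95% level, 4 rows and 0 ratios were past it, and chance alone marks about 1 in 20. None of the 6 urea cycle enzymes was among them. Slc7a2, a carrier of cationic amino acids including arginine and ornithine, was 69.8 FPKM in liver 3, below the other livers. Gulo, a pericentral gene, was 225 FPKM in liver 2, and the others lay from 293 to 307 FPKM. The acute phase gene Orm1 was 1631 FPKM in liver 2, and Apoa1, an apolipoprotein of hepatocytes, was 15343 FPKM in liver 4, each above the other livers.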

How the results depend on the processing

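Of 72 values recomputed under an alternative, 60 stayed within the spread between livers or within 1.5 times the reported value, and 12 did not. Leaving out 1 of 4 livers cannot shift a mean or share by more than the spread between livers. Rescaling leaves a share unchanged. Such values could only stay, so the count of 60 is no measure of stability. Scaling each liver to the sum that TPM has changes the unit, and the means became 4174 for Ass1, 1106 for Cps1, 623 for Asl, 579 for Glud1, 500.4 for Otc and 67.96 for Nags. The same scaling moved the share of genes with a smaller spread than Glud1 from 10.8% to 23.7%. It shifted the median deviation of all expressed genes in liver 4 by -0.087. The number of enzymes with a ratio of at least 1.5 between livers ranged from 0 to 1 with each liver left out in turn, and was 0 without liver 2 or liver 3, which hold the lowest and the highest Cps1 value. A minimum mean of 50 FPKM in place of 1 lowered the share of genes with such a ratio to 14.1%, and of the 5 genes nearest to the median profile 0 remained and of the 5 nearest to Cps1 1. The median SD of the 6 enzymes ranged from 0.17 to 0.19 when a liver was left out. The number of enzymes lowest in liver 2 was 4 under scaling to a common sum and 3 under median-ratio scaling, alternatives chosen after seeing the data. Dixon's ratio was not computed with 3 livers. No paired analysis was possible because there is 1 group. With 4 livers of 1 group, levels and spreads describe these animals, and values near 0.05 FPKM rest on single fragments.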
